A study of Mus musculus with 52 samples.

Results

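The genes described here are 9 Notch pathway and arterial genes of the mouse, the receptors Notch1 and Notch4, the ligands Dll4, Jag1 and Jag2, the target gene Hey1, the gap junction genes Gja4 and Gja5, and the kinase gene Bmx. They were chosen by name from 49585 quantified genes, with no measured value in the rule but with earlier results of these data known. They were followed in vascular endothelial cells (ECs) from 5 tissues. The series holds 52 samples in 26 groups of 2 replicates, of which 40 are RNA-seq libraries and 12 are libraries of chromatin accessibility (ATAC-seq). From cerebellum, anterior pituitary and posterior pituitary, dissociated cells were sorted into GFP-positive ECs and GFP-negative cells. WT mice there carried Tie2-GFP alone, and beta-catenin stabilized mice carried Tie2-GFP; Pdgfb-CreER; BcatEx3fl, in which Cre removes exon 3 of the beta-catenin gene so that the protein is not degraded. The stabilized sorted mice received 100 µg of 4-hydroxytamoxifen (4HT) at day 10, and in these tissues the allele cannot be told apart from Cre and 4HT. From cortex and choroid plexus, ribosomes tagged with HA in Pdgfb-CreER cells (RiboTag) were immunoprecipitated, giving a bound fraction beside the input of whole tissue. Both RiboTag genotypes carried Cre, RiboTag; Pdgfb-CreER for WT and RiboTag; Pdgfb-CreER; BcatEx3fl for stabilized mice, and the study's text gives an injection of 4HT several weeks earlier for both. All samples were labelled as adult males. Each pituitary replicate pooled 20 to 30 mice aged 30 to 90 days, RiboTag mice were 6 to 8 weeks old, and choroid plexus was pooled from 3 or 4 animals. The Tie2 transgene marks the sorted cells whether or not Cre has acted in them, whereas the ribosomal tag is made in cells in which Cre has acted. RNA of other cells was present in the bound fraction, and in WT choroid plexus the 5 markers of choroid plexus epithelium summed to 19089 and 20077 TPM (transcript abundance scaled for length and library) there, against 34671 and 37915 TPM in the input. Sorted ECs held such RNA too. The 7 pituitary endocrine markers summed to 6784 and 4375 TPM in WT and 4646 and 4061 TPM in stabilized anterior pituitary ECs. In posterior pituitary ECs, with Tshb and Lhb under 0.1 TPM, they summed to 3367 and 478 against 346 and 810 TPM. The 4 erythrocyte markers summed to 65196 and 6655 TPM in WT and 11263 and 12842 TPM in stabilized cerebellum ECs. The part of these sums in the results was not tested.

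Notch receptors are cut after they bind a Delta or Jagged ligand on a neighbouring cell, and the freed intracellular part acts with the DNA-binding protein RBPJ on target genes such as Hey1. In blood vessels Dll4 and Notch signalling are known for arterial specification and for restraining sprouting, and Jag1 can oppose Dll4 in sprouting. Gja4 and Gja5 encode connexin 37 and connexin 40, which join arterial ECs, and Bmx encodes a Tec family tyrosine kinase of arterial endothelium and endocardium. Beta-catenin acts in the nucleus with TCF and LEF factors and is required in ECs for the blood-brain barrier. In bulk samples fewer arterial cells and less RNA per cell cannot be told apart.

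The sorted libraries held 12157485 to 37529274 estimated reads, the bound libraries 6409013 to 21399125 and the input libraries 7771798 to 21211999. The summed level of 10 EC markers was 1831 to 6302 TPM in the 12 GFP-positive libraries and 2.23 to 35.3 TPM in the 12 GFP-negative libraries. In the bound fraction it was 380 to 1126 TPM, against 18.5 to 52.5 TPM in the input. Axin2, a target of beta-catenin, was called higher in stabilized posterior pituitary ECs (log2 5.73 ± 1.16, SE, adjusted p = 0.0291) and in the stabilized cortex bound fraction (2.66 ± 0.27, adjusted p = 0.00119). It was not called in cerebellum (1.47), anterior pituitary (3.12) or choroid plexus (0.97). The library of stabilized anterior pituitary ECs replicate 2 carries a posterior tissue label although its title and its source name the anterior lobe, which was followed. The 4 WT cortex libraries stood apart in make-up. The short RNA gene Gm23935 took 0.123 to 0.409% of their TPM, against 31.0 to 52.2% in the 4 stabilized cortex libraries and 43.1 to 50.7% in the choroid plexus libraries. Nuclear protein-coding transcripts held 30.6 and 30.2% of TPM in the WT cortex bound libraries and 15.4 and 14.8% in the stabilized ones. This difference cannot be told apart from genotype in cortex, and it also separates WT cortex from WT choroid plexus.

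Between stabilized and WT ECs, 6 calls were made among the 9 genes over 5 tissues, and Notch4 was the only gene called in 2 of them. Gja5 and Bmx rose in anterior pituitary, Notch4 fell in posterior pituitary, and Notch1, Notch4 and Jag2 rose in the cortex bound fraction. No gene of the 9 was called in cerebellum or choroid plexus. A call needed an adjusted p under 0.05 in edgeR's quasi-likelihood test, over all genes tested, and a change of at least 2-fold. The study's methods call the 2 libraries of each group biological replicates.

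In cerebellum ECs 0 of 9 genes were called, beside 0.648% of 17915 genes tested, and 0 passed an unadjusted p of 0.05, beside 9.77%. DESeq2 also called 0, beside 5.52%. All 9 fitted values lay below 0, with a median of -0.56 on the log2 scale against -0.076 over all genes. The sign turned for Notch1 (up to 0.10) and Dll4 (up to 0.13) when 1 library was left out. It also turned for Dll4 and Jag2 with limma on TPM of protein-coding transcripts. Other marker sums were also lower in these stabilized ECs, with the 5 venous endothelial markers at 156 and 229 TPM in WT and 80.9 and 74.7 TPM in stabilized libraries, the 10 EC markers at 3171 and 2864 against 2420 and 2153, and the 6 pericyte markers at 941 and 820 against 647 and 464. Every marker of these 3 lists was above 0.1 TPM, and their part was not tested. In anterior pituitary ECs 2 of 9 were called, both higher, beside 0.458% of genes. In posterior pituitary ECs 1 of 9 was called, beside 1.79%, and 5 passed the unadjusted p, 4 lower and 1 higher, beside 12.9%. In the cortex bound fraction 3 of 9 were called, beside 6.32% of 16775 genes. In the choroid plexus bound fraction 0 were called by edgeR, beside 0.852%, and 0 by DESeq2, beside 4.01%, and 3 passed the unadjusted p, all of them higher, beside 13.9%. The median of the 9 genes was 0.70 in anterior pituitary, -0.24 in posterior pituitary, 0.75 in cortex and 0.68 in choroid plexus, where the medians of all genes were 0.064, 0.010, 0 and -0.093.

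**Figure D1:**
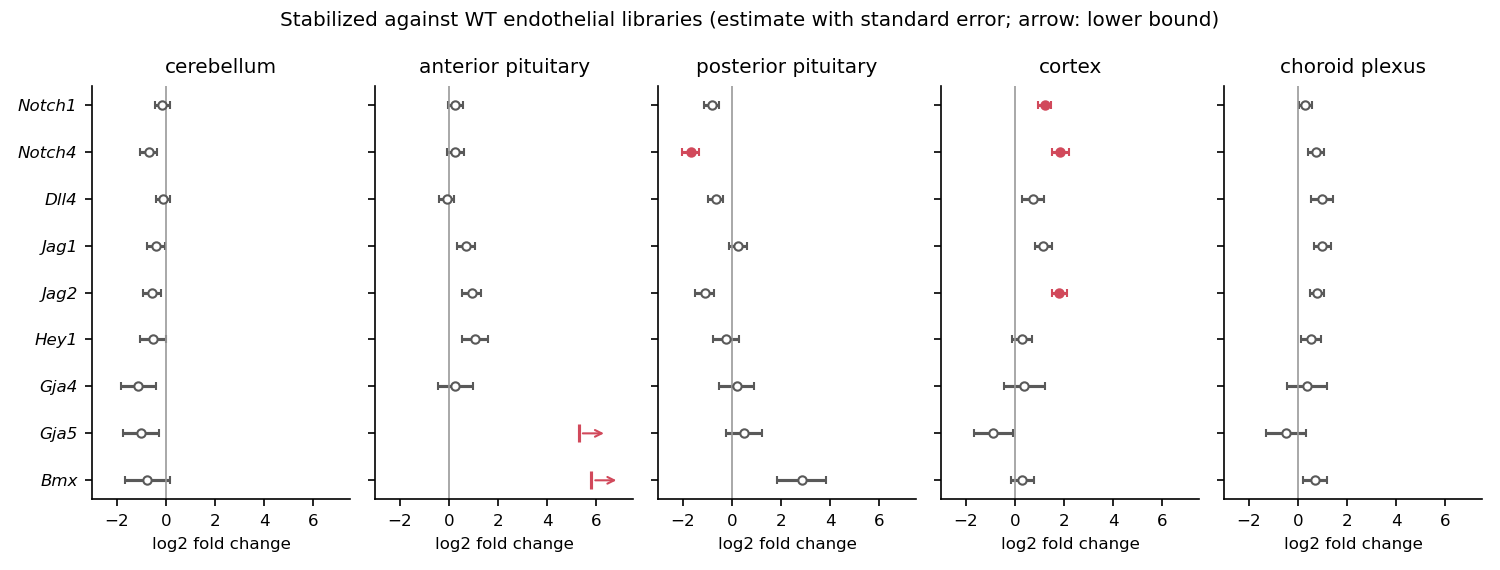
The log2 fold change of stabilized over WT ECs is plotted for each of the 9 genes by tissue, with bars of 1 SE and called genes filled in red. Gja5 and Bmx in anterior pituitary are drawn as arrows from their lower bounds, since WT had 0 reads, and Notch4 lies at -1.68 in posterior pituitary and at 1.86 in the cortex bound fraction.

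Notch4, a receptor largely restricted to endothelium, moved in opposite directions in 2 tissues. In posterior pituitary ECs it read 278 and 474 normalised CPM (read counts scaled to library size) in WT and 90.2 and 145 in stabilized replicates, and the groups did not overlap. The fitted change was -1.68 ± 0.36 (log2, SE, adjusted p = 0.0364, n = 2 and 2), a level 0.313 times that of WT. Without WT replicate 2 the value was -1.24 and without stabilized replicate 1 it was -1.38, and the call was lost in each case. It was also lost with only the 2 groups in the fit (-1.65), and with limma on log2(TPM + 1) of summed (-1.79) or protein-coding TPM (-2.04). In the cortex bound fraction Notch4 read 50.5 and 25.9 in WT and 158 and 119 in stabilized replicates. There it rose by 1.86 ± 0.33 (adjusted p = 0.0137), with a value of 1.62 and no call when stabilized replicate 1 was left out. In choroid plexus its WT libraries read 67.0 and 63.5 and its stabilized libraries 101 and 119, a fitted value of 0.75 ± 0.33 that missed the threshold (adjusted p = 0.351). In cerebellum the pairs were 118 and 193 against 87.7 and 103, and in anterior pituitary 163 and 163 against 230.0 and 162. Of the 6 sorted EC groups WT posterior pituitary held the highest Notch4 libraries. The EC marker sum there was 6302 and 4221 TPM in WT and 2175 and 1831 TPM in stabilized libraries, the venous endothelial sum was 128 and 139 against 70.3 and 87.7 TPM, and the pericyte sum 148 and 81.7 against 52.0 and 41.0 TPM. Of the reads of these libraries, mitochondrial genes took 8.56 and 6.02% (WT) against 17.4 and 17.9% (stabilized), and nuclear protein-coding transcripts 71.0 and 63.9% against 52.0 and 53.3%. The part of these differences in the result was not tested.

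Notch1, the receptor needed for arterial fate, rose in the cortex bound fraction from 112 and 71.3 to 208 and 217 normalised CPM. The change was 1.22 ± 0.27 (log2, adjusted p = 0.0327). It was 0.95 without WT replicate 2, 1.23 without stabilized replicate 1 and 1.21 without stabilized replicate 2, each time without a call. In posterior pituitary ECs Notch1 read 410.3 and 579 in WT and 200.3 and 361 in stabilized replicates, groups that did not overlap, with a fitted value of -0.82 ± 0.31 that was not called (adjusted p = 0.267). In cerebellum the libraries overlapped, at 361 and 501 in WT and 405 and 372 in stabilized ECs. The anterior pituitary libraries read 219 and 271 against 293 and 292, and those of choroid plexus 122 and 163 against 167 and 184.

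Among the ligands, Jag2 was called in cortex. Its bound libraries read 42.8 and 27.6 normalised CPM in WT and 129 and 117 in stabilized mice, a rise of 1.80 ± 0.30 (log2, adjusted p = 0.0105) that kept its call when any 1 cortex library was left out. Of the 3 cortex calls that of Notch4 alone was kept in summed TPM, and none in TPM of protein-coding transcripts. In a test of log2(TPM + 1) with limma, chosen after seeing the data, Jag2 was at -0.55 with TPM summed over all its transcripts, where the median of all genes was -0.65, and at 0.47 with TPM of protein-coding transcripts alone. Notch1 was at 1.68 and 1.39 without a call, and Notch4 at 2.09 with summed TPM, which was called, and at 1.45 with protein-coding TPM, which was not. Markers of other cells also differed in this fraction. The 5 neuron markers summed to 1164 and 1402 TPM in WT and 331 and 314 in stabilized libraries, and the 5 oligodendrocyte markers to 1131 and 1183 against 163 and 178. The 5 microglia markers summed to 1649 and 1125 against 599 and 571, with every marker of the 3 lists above 0.1 TPM. The 4 smooth muscle markers summed to 37.8 and 18.3 against 3.61 and 3.06 TPM. The 10 EC markers summed to 1001 and 380 against 940 and 801 TPM, in libraries whose share of nuclear protein-coding TPM differed as given above, and the part of these differences was not tested. In posterior pituitary ECs Jag2 read 101 and 212 (WT) against 66.4 and 78.3 (stabilized), without overlap (-1.11 ± 0.38, adjusted p = 0.211). That fitted value ranged from -1.53 to -0.48 when 1 library was left out. In anterior pituitary the direction was the other way, 60.3 and 40.2 against 93.2 and 98.6 (0.93 ± 0.38, adjusted p = 0.651). The cerebellum libraries overlapped at 102 and 183 against 107 and 86.7, and those of choroid plexus read 51.2 and 56.9 against 74.7 and 109.

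Jag1 was not called in any tissue, although in normalised CPM its stabilized libraries lay above both WT libraries in 3 of the 5. In summed TPM the pairs overlapped in these 3 tissues, and with limma on that scale the sign turned in cortex. The cortex bound fraction read 39.8 and 22.9 normalised CPM in WT and 70.1 and 69.99 in stabilized mice (log2 1.16 ± 0.33, adjusted p = 0.0727), and DESeq2 called it (adjusted p = 0.0377, beside 11.2% of genes). Choroid plexus read 17.9 and 24.7 against 43.0 and 42.2, a value of 0.999 ± 0.338 (adjusted p = 0.232). Anterior pituitary read 26.9 and 55.7 against 64.9 and 69.3 (0.70 ± 0.38, adjusted p = 0.698). In cerebellum the stabilized libraries were the lower ones, at 109.9 and 142 in WT and 106 and 84.6 (-0.40 ± 0.37, adjusted p = 0.753), and posterior pituitary overlapped at 55.8 and 90.6 against 71.1 and 104. The choroid plexus EC marker sum was 455 and 546 TPM in WT and 1126 and 750 TPM in stabilized libraries, and its part was not tested.

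Dll4, the ligand of tip cells and arteries, was not called in any genotype comparison. WT anterior pituitary ECs read 161 and 255 normalised CPM and stabilized ones 187 and 202, so that the stabilized pair lay inside the WT pair. The cerebellum pairs overlapped as well, at 91.3 and 126 against 115 and 84.8. Posterior pituitary read 177 and 158 in WT and 97.5 and 113 in stabilized ECs, without overlap (-0.67 ± 0.29, adjusted p = 0.352). Choroid plexus read 30.7 and 26.1 against 73.0 and 39.7 (0.99 ± 0.45, adjusted p = 0.369), and cortex 28.3 and 12.4 against 37.4 and 30.9.

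The region near Jag1 with the strongest gained peak of the 9 genes lay upstream of Jag1, at -87952 bases from its start (chr2:137204300-137204790, intergenic, GRCm38). A peak is called gained here when both stabilized replicates had it and neither WT replicate did. Its fold enrichment was 17.9 and 15.3 in stabilized anterior pituitary ECs and 14.5 and 12.4 in stabilized posterior pituitary ECs, and both WT cerebellum replicates had a peak there too. A region 23931 bases downstream of the start of Hey1 (chr3:8643087-8643591, intergenic) was gained at 7.31 and 8.18 in anterior pituitary and at 3.69 and 3.66 in posterior pituitary, and again was present in WT cerebellum. Jag1 read higher in WT cerebellum than in WT anterior pituitary ECs, and so did Hey1, the target gene described next. The 201 bases around each summit in anterior pituitary are shown, read 5′ to 3′ on the plus strand of GRCm38.p6, because both regions had a peak in WT cerebellum and a gained peak in both pituitary lobes. Capitals mark a TCF/LEF word (TTCAAAG or ATCAAAG on either strand) in the Jag1 window and 2 RBPJ words (TGGGAA on either strand) in the Hey1 window, and a match is a description of the letters only. A further region, in an intron of Jag1 (chr2:137098395-137098978), met the same rule and is not shown. It was gained at 5.88 and 5.58 in anterior and at 4.34 and 3.40 in posterior pituitary, and its windows held neither kind of word.
Jag1 peak chr2:137204496-137204696: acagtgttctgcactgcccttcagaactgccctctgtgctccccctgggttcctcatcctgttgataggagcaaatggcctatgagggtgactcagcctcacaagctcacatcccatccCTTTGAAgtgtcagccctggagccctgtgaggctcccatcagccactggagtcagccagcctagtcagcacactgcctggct
Hey1 peak chr3:8643225-8643425: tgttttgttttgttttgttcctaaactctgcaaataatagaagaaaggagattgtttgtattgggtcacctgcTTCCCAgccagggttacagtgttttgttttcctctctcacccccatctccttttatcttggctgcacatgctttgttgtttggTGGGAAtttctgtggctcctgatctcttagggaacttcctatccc

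Hey1, a transcriptional repressor switched on by Notch, was called higher in cerebellum than in anterior pituitary among WT ECs and was not called between genotypes. WT cerebellum ECs read 69.6 and 80.5 normalised CPM, WT posterior pituitary ECs 31.7 and 28.2, and WT anterior pituitary ECs 13.5 and 3.36, and these groups did not overlap. Cerebellum was higher than anterior pituitary by 3.16 ± 0.56 (log2, adjusted p = 0.00411), whereas cerebellum against posterior pituitary (1.33 ± 0.53, adjusted p = 0.253) and anterior against posterior pituitary (-1.83 ± 0.53, adjusted p = 0.165) were not called. The value between the lobes ranged from -3.14 to -1.15 when 1 library was left out, and DESeq2 called it. In stabilized ECs the same tissues read 46.8 and 57.7, 27.2 and 23.4, and 15.9 and 19.1. The stabilized anterior pituitary pair lay above its WT pair (1.06 ± 0.52, adjusted p = 0.698), and the stabilized cerebellum pair below (-0.52 ± 0.52, adjusted p = 0.778). In the bound fraction WT cortex read 43.4 and 25.8 and WT choroid plexus 13.0 and 14.9, a difference of 1.31 ± 0.41 (adjusted p = 0.0367) that was 0.90 and not called without WT cortex replicate 1. The call was also lost without WT choroid plexus replicate 1 (1.10) or replicate 2 (1.33), and with only these 2 groups in the fit (1.30). Stabilized cortex read 39.6 and 44.8 and stabilized choroid plexus 14.3 and 26.1.

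Gja5, connexin 40 of arterial ECs, had 0 reads in both WT anterior pituitary EC libraries and 98 and 171 reads in the stabilized ones. The stabilized level was at least 39.1-fold higher, counted from the lower stabilized library in CPM against a floor of 3 reads per library (adjusted p = 0.00404). The call was kept without the library of uncertain lobe, and without each of the other 3 anterior pituitary libraries. It was lost with only the 2 groups in the fit and with limma on log2(TPM + 1) of summed or of protein-coding TPM. Smooth muscle markers, of the mural cells of arteries, were also higher, with the 4 markers at 0.921 and 0.0325 TPM in WT and 4.64 and 1.61 TPM in stabilized libraries, Cnn1 and Tagln under 0.1 TPM in WT and Cnn1 in stabilized ones, and their part in the results for Gja5 and Bmx was not tested. The normalised CPM of Gja5 in stabilized anterior pituitary ECs was 3.49 and 7.26, still below the 19.1 and 20.7 of WT cerebellum and the 14.6 and 20.99 of WT posterior pituitary. In cerebellum the stabilized libraries read 5.81 and 13.8, below both WT libraries, but the change did not pass the test (-1.02 ± 0.75, adjusted p = 0.645). Posterior pituitary overlapped with 19.9 and 30.1 in stabilized ECs, and both RiboTag tissues overlapped as well, at 16.4 and 6.93 against 2.91 and 9.68 in cortex and 5.65 and 8.83 against 6.04 and 4.25 in choroid plexus. In the separate ATAC-seq libraries the promoter of Gja5 held a peak in WT anterior pituitary ECs at 14.1 and 16.1 fold enrichment, and in stabilized ones at 14.9 and 15.6.

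Gja4, connexin 37, was not called between genotypes in any tissue. WT anterior pituitary replicates differed from each other more than the groups did, at 17.4 and 2.64 normalised CPM against 8.01 and 16.04 in stabilized ECs. Cerebellum read 24.8 and 40.7 in WT and 18.3 and 11.9 in stabilized ECs, without overlap (-1.12 ± 0.71, adjusted p = 0.581). Posterior pituitary read 45.2 and 33.4 against 44.9 and 44.7. The bound libraries were low throughout, from 3.64 to 13.6, and by TPM of protein-coding transcripts Gja4 stood at 2.22 ± 0.15 (SD, n = 2) in WT cortex, inside the Gja5 pair.

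Bmx was the other gene without a read in WT anterior pituitary ECs. Its stabilized libraries held 162 and 130 reads, at least 55.5-fold more by the same floor (adjusted p = 0.0323). The call held without either stabilized library and was lost without either WT library, with only the 2 groups in the fit and with limma on either TPM. The level reached, 5.77 and 5.52 normalised CPM, was below the 66.7 and 37.95 of WT cerebellum. In posterior pituitary ECs the WT replicates differed widely, at 1.06 and 20.9, and both stabilized replicates were higher, at 77.2 and 78.7. The fitted change of 2.84 ± 0.98 did not pass edgeR's threshold (adjusted p = 0.218) and passed that of DESeq2 (adjusted p = 0.0326, beside 8.01% of genes). It was 1.92 without WT replicate 1 and not called, and 6.19 without WT replicate 2 and called in edgeR. In cerebellum stabilized ECs read 18.1 and 43.8, overlapping WT, and cortex overlapped too, at 19.0 and 12.1 against 15.6 and 22.8. Choroid plexus read 10.5 and 9.11 against 11.9 and 19.5 (0.68 ± 0.48, adjusted p = 0.574). Microglia markers were also higher in the stabilized pituitary ECs, with the 5 markers at 4.78 and 0.0362 against 76.5 and 132 TPM in anterior pituitary and at 0.860 and 0.116 against 134 and 109 TPM in posterior pituitary, and their part in the results was not tested.

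**Figure D2:**
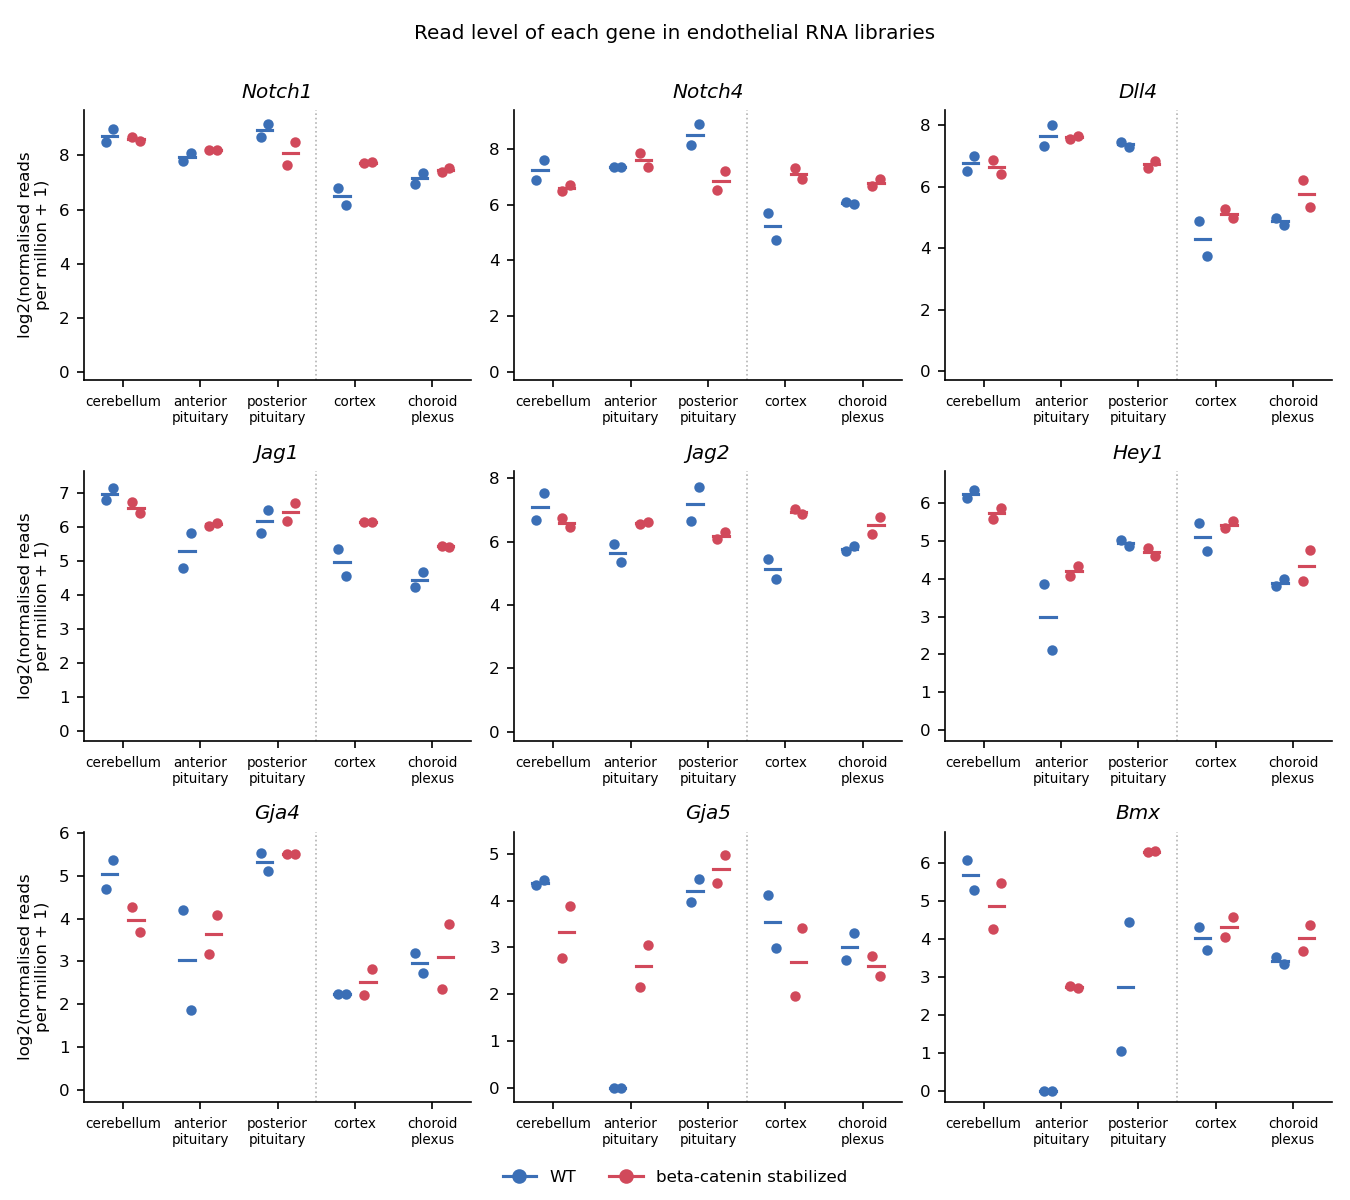
Each point is 1 EC library, with log2(normalised CPM + 1) on the vertical axis, tissues along the horizontal axis, WT in blue and beta-catenin stabilized in red. The sorted and the bound libraries were normalised separately and are divided by a dotted line. Gja5 and Bmx lie at 0 in both WT anterior pituitary libraries, and the stabilized posterior pituitary libraries of Bmx lie above all other sorted libraries of that gene.

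The Bmx promoter was the only promoter of the 9 without an ATAC-seq peak in all 12 libraries. No WT library had a peak there. Stabilized cerebellum ECs had it at 4.54 and 4.51 fold enrichment and stabilized posterior pituitary ECs at 5.43 and 3.66, and stabilized anterior pituitary ECs, in which the RNA was called higher, had none. The stretch from 250 bases before to 50 bases after the annotated start is shown because the gained peaks fall on it (chrX:164258144-164258443, minus strand, RefSeq, GRCm38.p6). Capitals mark an RBPJ word 178 bases before the start.
Bmx promoter: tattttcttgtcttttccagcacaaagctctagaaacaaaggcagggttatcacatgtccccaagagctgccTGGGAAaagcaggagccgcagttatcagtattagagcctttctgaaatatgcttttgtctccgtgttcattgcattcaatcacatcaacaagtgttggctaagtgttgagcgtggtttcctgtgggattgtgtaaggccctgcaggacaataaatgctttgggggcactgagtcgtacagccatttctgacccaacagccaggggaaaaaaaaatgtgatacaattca

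Of the 8 genes with a promoter in the RefSeq table, Bmx was the only gene with the RBPJ word, which 25.6% of 32851 promoters of the same length hold. None of the 8 held a TCF/LEF word, which 8.65% of promoters hold. Hey1 had no entry.

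The change with genotype was compared between tissues by an interaction term. The response of Gja5 was larger in anterior pituitary than in cerebellum (adjusted p = 0.00577) and than in posterior pituitary (adjusted p = 0.0330), and that of Bmx was larger in anterior pituitary than in cerebellum (adjusted p = 0.0454). The comparisons share the anterior pituitary libraries, where WT had 0 reads, so no size is given. These were 2 of 9 genes beside 0.519% of genes for anterior pituitary against cerebellum, and 1 of 9 beside 0.128% for posterior against anterior pituitary. The Gja5 call between the pituitary lobes was lost without WT anterior pituitary replicate 1, or without either stabilized posterior pituitary replicate. With only the 4 groups concerned in the fit, Gja5 lost both calls. Between posterior pituitary and cerebellum edgeR called 0 of 9, beside 0.927%, and DESeq2 called 0, beside 6.81%. Bmx alone passed the unadjusted p of 0.05 there, with a difference of 3.60 ± 1.34. That difference ranged from 2.67 to 6.95 when 1 library was left out. For Notch4, down in posterior pituitary and at 0.27 in anterior pituitary, the difference of -1.95 ± 0.49 was not called by edgeR (adjusted p = 0.221). For posterior minus anterior pituitary all 9 fitted differences lay below 0, with a median of -1.30 against -0.031 over all genes, and 5 passed the unadjusted p, beside 9.09%. DESeq2 called 4 there, Notch4, Jag2, Gja5 and Bmx, beside 3% of genes. Between choroid plexus and cortex 0 were called by edgeR, beside 2.15%, and 0 by DESeq2, beside 6.84%, and 3 passed the unadjusted p, beside 17.6%, Notch1, Notch4 and Jag2, all lower in choroid plexus.

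Among WT vascular beds, cerebellum ECs held more of 5 genes than anterior pituitary ECs, beside 5.26% of genes called. Besides Hey1, Jag1 was higher by 1.61 ± 0.38 (adjusted p = 0.0272) and Jag2 by 1.503 ± 0.388 (adjusted p = 0.0425). Gja5, with 667 and 537 reads, was at least 190-fold higher, and Bmx, with 2333 and 984 reads, at least 348-fold higher. Without WT cerebellum replicate 2 the values were 1.41 for Jag1 and 1.02 for Jag2, and without WT anterior pituitary replicate 1 they were 1.17 and 1.82, and both calls were lost each time. The call of Jag2 was also lost without WT anterior pituitary replicate 2, at 1.24. With only the 2 groups in the fit Hey1 (3.18), Jag1 (1.63) and Jag2 (1.52) were not called. In WT anterior against WT posterior pituitary ECs 2 of 9 were called, beside 0.994%, and 8 lay lower with an unadjusted p under 0.05, which 11.6% of genes had in either direction. The genes called were Gja5 and Bmx, at least 162-fold and at least 11.7-fold higher in posterior pituitary, and neither was called with only the 2 groups in the fit. Dll4 was the exception, at 0.31 ± 0.29. DESeq2 called 6 of these 8, beside 6.98% of genes. Between cerebellum and posterior pituitary edgeR called 0, beside 4.4%, with 3 at the unadjusted p, beside 14.3%, and DESeq2 called 1, beside 11.8%, Notch4, which was lower in cerebellum (-1.28 ± 0.35). With a replicate block edgeR called Notch4 too (adjusted p = 0.0382), and without a filter on low counts it called Notch4 and Bmx. WT cortex against WT choroid plexus gave 1 call, Hey1, beside 29.7% of genes.

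The 9 genes marked the EC fraction unequally. Against GFP-negative cells of the same tissue 6 were called higher in WT cerebellum ECs, beside 11.3% of genes called in either direction, 4 in WT anterior pituitary ECs, beside 11.3%, and 8 in WT posterior pituitary ECs, beside 14.5%. The bound fraction was higher than the input for 7 genes in WT cortex, beside 11.6%, and for 7 in WT choroid plexus, beside 15.3%. Notch4 was called in all 5 tissues, at 6.13 ± 1.15 in cerebellum, 5.48 ± 1.11 in anterior pituitary, 9.25 ± 1.32 in posterior pituitary, 3.75 ± 0.29 in cortex and 3.08 ± 0.28 in choroid plexus. Dll4, Notch1 and Jag2 were also called in all 5. With only the 2 groups in the fit, Dll4 (6.15), Jag2 (2.82), Jag1 (3.44) and Bmx were not called in posterior pituitary. For Notch1 the cerebellum value was 1.42 ± 0.43, with 210.3 and 101 normalised CPM in GFP-negative cells and 354 and 479 in ECs. That call was lost without GFP-negative replicate 2 (1.10) or GFP-positive replicate 2 (1.24), and with only the 2 groups in the fit (1.55).

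Hey1 was called only in choroid plexus, at 1.68 ± 0.35 (adjusted p = 0.00436), and was 1.44 without a call when WT choroid plexus input replicate 1 was left out. In cortex it read 35.6 and 23.1 normalised CPM in the bound fraction and 28.0 and 28.2 in the input (0.06 ± 0.31), and in anterior pituitary 13.0 and 3.26 in ECs and 13.0 and 7.45 in GFP-negative cells. Gja4 was at least 195-fold and Bmx at least 7.25-fold higher in WT posterior pituitary ECs than in GFP-negative cells, which had 0 reads of either. Gja5 was called in posterior pituitary, cortex (3.19 ± 0.92, adjusted p = 0.0334) and choroid plexus (3.25 ± 0.98, adjusted p = 0.0336). The 2 RiboTag calls were each lost when any of 3 libraries (cortex) or any of 4 (choroid plexus) was left out, with values of 2.74 to 3.57 in cortex and 2.43 to 4.69 in choroid plexus, and both were lost with a replicate block within each preparation (3.09 and 3.39).

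**Figure D3:**
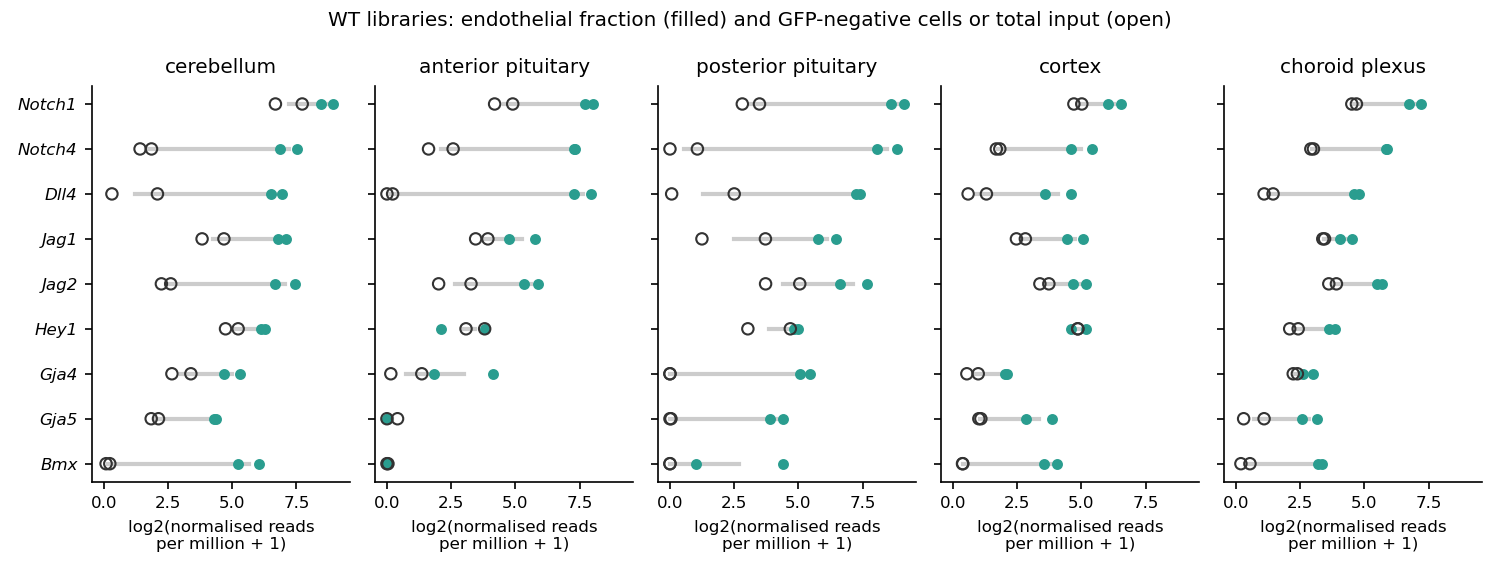
The WT EC fraction (filled) and the remaining cells or whole tissue (open) are plotted for each gene as log2(normalised CPM + 1), 1 point per library, by tissue. Notch4 and Dll4 are separated in every tissue, whereas the fractions of Hey1 meet in cortex and anterior pituitary.

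Outside the EC fraction no gene of the 9 was called between genotypes by edgeR. The counts were 0 of 8 tested in GFP-negative cells of cerebellum (beside 0.76%), anterior pituitary (beside 0.0408%) and posterior pituitary (beside 0.133%), and 0 of 9 in the input of cortex (beside 11.8%) and choroid plexus (beside 0.106%). Bmx was too low for the test in GFP-negative cells. In cerebellum 1 gene passed the unadjusted p (beside 10.9%) and DESeq2 called 1 (beside 5.9%), Jag2, at 5.07 and 3.72 normalised CPM in WT and 0.108 and 0.108 in stabilized GFP-negative cells. In posterior pituitary 2 passed it (beside 9.94%), Notch1 and Gja4, and DESeq2 called 1 (beside 4.83%), Gja4, which read 0 and 0 in WT and 3.05 and 3.12 in stabilized GFP-negative cells. In anterior pituitary 0 passed it (beside 5.51%) and DESeq2 called 0 (beside 1.69%). In the input 1 gene passed it in cortex, Hey1 (-0.58 ± 0.19, beside 38.2%), and 1 in choroid plexus, Bmx (beside 7.41%), and DESeq2 called 0 in each (beside 12.7 and 0.802%).

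Levels were compared between the 9 genes per length, by TPM of protein-coding transcripts. In WT cerebellum ECs Jag2 stood at 45.3 ± 11.6 TPM (SD, n = 2), followed by Hey1 at 25.0 ± 2.6 and Notch1 at 20.4 ± 0.43, with pairs that did not overlap between these neighbours. Dll4, Notch4, Bmx, Gja4 and Jag1 lay between 11.1 and 13.5 TPM, with the pairs of Notch4 and Bmx overlapping those of all the others, and Gja5 was lowest at 3.30 ± 0.31. In WT anterior pituitary ECs Dll4 led at 29.3 ± 9.9, above Jag2 at 15.6 ± 7.0, Notch4 at 14.7 ± 0.19 and Notch1 at 12.9 ± 2.6, and these 3 overlapped. The other genes were at 4.00 or below. In WT posterior pituitary ECs Jag2 led at 100.3 ± 47.0, and Notch4 (39.6 ± 5.1), Notch1 (33.6 ± 4.3) and Dll4 (29.9 ± 12.3) did not differ beyond their spread. Bmx, at 3.41 ± 3.97, and Gja5, at 3.64 ± 0.11, did not differ beyond their spread. In the WT cortex bound fraction Hey1 (18.1 ± 6.8) and Jag2 (13.6 ± 1.9) led, and in WT choroid plexus Notch1 (5.43 ± 1.44) and Jag2 (5.24 ± 2.19), each time with overlapping pairs.

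Summed TPM and reads of Notch1 lay on different transcripts. In the 12 GFP-positive libraries 73.0 to 96.2% of its summed TPM lay on annotated transcripts shorter than 1000 nt, whereas 90.4 to 97.3% of its reads lay on the protein-coding transcript of 9488 nt. Its summed TPM in anterior pituitary ECs was 297 and 208 in WT and 67.0 and 50.5 in stabilized ECs. The TPM of its protein-coding transcript was 11.0 and 14.7 against 17.1 and 12.2, and its normalised CPM was higher in both stabilized libraries. Bmx and Gja4 had no such transcripts, and their summed and protein-coding TPM were the same in the libraries of all 6 groups plotted.

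**Figure D4:**
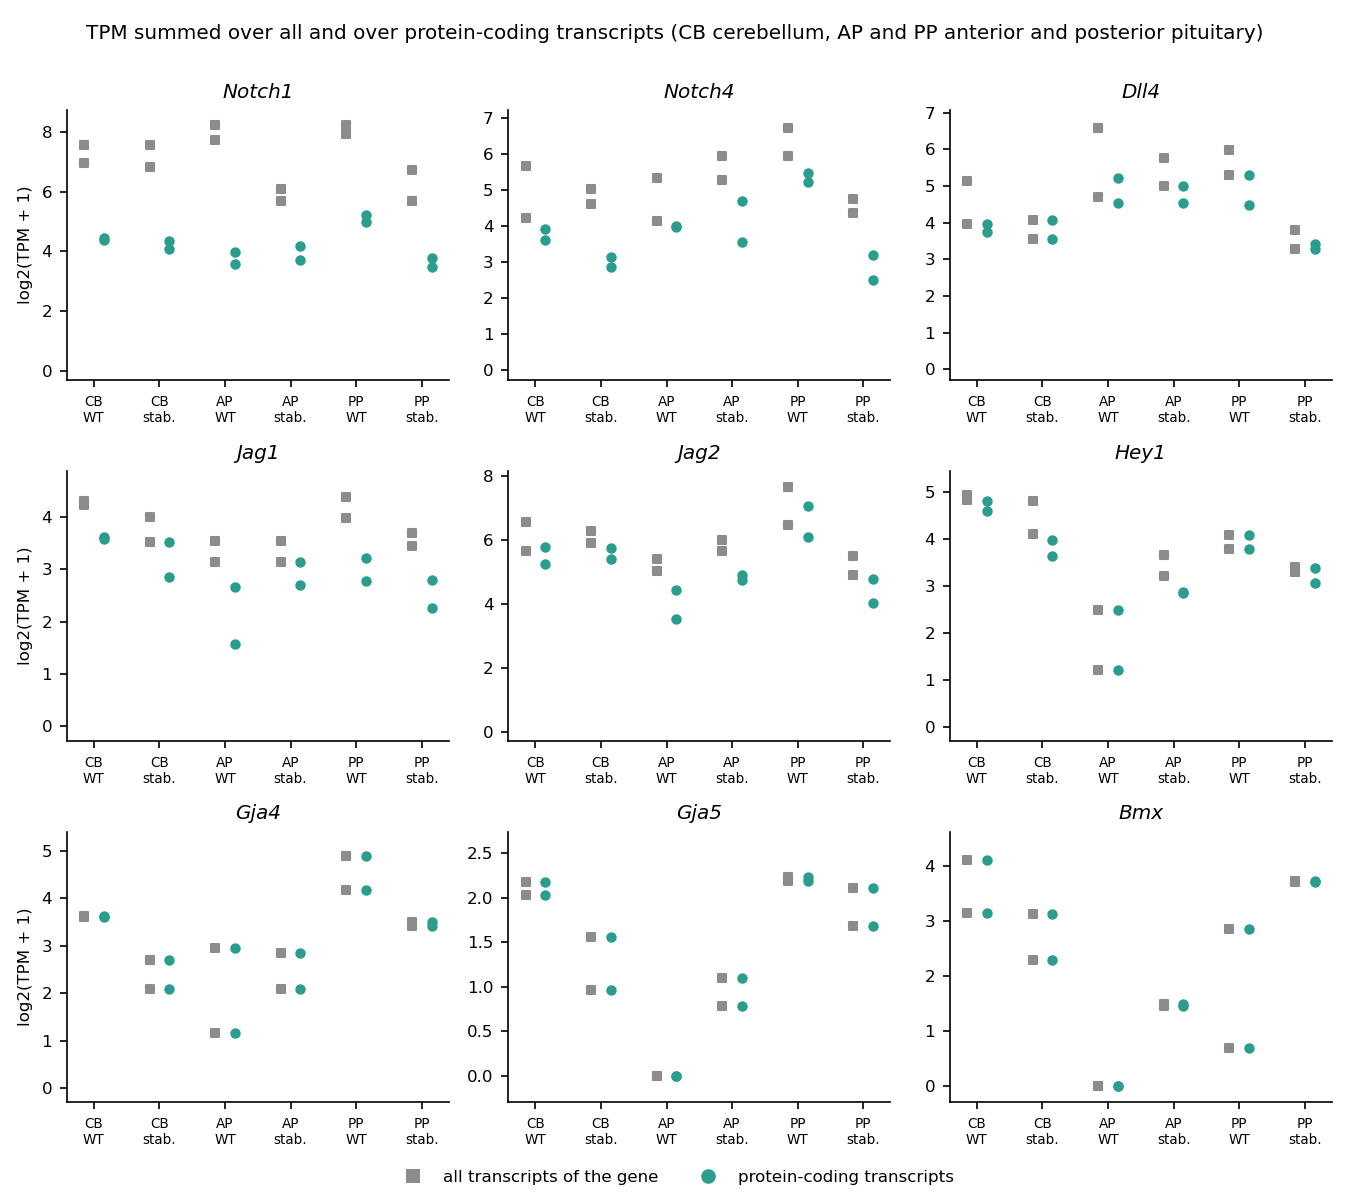
For each of the 9 genes log2(TPM + 1) is plotted in the 6 GFP-positive groups, with squares for TPM summed over all transcripts of the gene and circles for TPM of its protein-coding transcripts. The 2 symbols lie apart for Notch1, Notch4, Jag2, Jag1 and, in some libraries, Dll4 and Hey1, and coincide for Gja4, Gja5 and Bmx.

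Few other genes of the pathway were called. Of 36 further Notch pathway genes 35 were tested in sorted ECs and 34 in the bound fraction. In cerebellum 0 were called by edgeR in either direction, beside 0.648% of all genes, with 4 lower at the unadjusted p (beside 9.77% of genes in either direction), and in anterior pituitary 0, beside 0.458%, with 3 higher (beside 6.99%). In posterior pituitary 1 was higher, beside 1.79%, Notch3, whose TPM did not exceed 0.231 in any of the 4 libraries, with 1 higher and 4 lower at the unadjusted p (beside 12.9%). In cortex, where 5 were higher and 3 lower at the unadjusted p (beside 22.7%), 1 was called lower, beside 6.32% of all genes called, Fbxw7, which encodes a ubiquitin ligase subunit that marks the Notch intracellular domain for degradation (-1.02 ± 0.24, adjusted p = 0.0402). The neuron and oligodendrocyte sums and the make-up of the cortex libraries, given above, moved with it, and their part was not tested. In choroid plexus 0 were called, beside 0.852%, with 1 higher and 2 lower at the unadjusted p (beside 13.9%). The list median lay at 0.01, 0.23, -0.13, 0.15 and -0.05 in cerebellum, anterior pituitary, posterior pituitary, cortex and choroid plexus.

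Among 14 further arterial genes, 1 was called in cerebellum (beside 0.648% of all genes), 1 in anterior pituitary (0.458%), 2 in posterior pituitary (1.79%), 1 in cortex (6.32%) and 1 in choroid plexus (0.852%). Vegfc, a growth factor of lymphatic vessels, fell by 2.26 ± 0.41 in cerebellum ECs (adjusted p = 0.0288), from 28.1 and 12.4 to 3.59 and 7.14 TPM. Nrp1, a coreceptor for VEGF, fell in posterior pituitary ECs by 1.72 ± 0.25 (adjusted p = 0.00448), and Efnb2, the ephrin that marks arteries, by 1.40 ± 0.26 (adjusted p = 0.0206), beside the fall of Notch4 and of the EC marker sum given with it. Mgp, an inhibitor of calcification and of BMP signalling, rose in the cortex bound fraction by 2.25 ± 0.38 (adjusted p = 0.0112). Cxcl12, the chemokine ligand of Cxcr4, rose in choroid plexus by 3.12 ± 0.37 (adjusted p = 0.00695), from 11.3 and 13.1 to 102 and 82.4 TPM. In anterior pituitary it rose by 2.87 ± 0.56 (adjusted p = 0.0498), to 9.27 and 9.41 TPM. The EC marker sum of choroid plexus and the make-up of the cortex libraries, both given above, also differed between the genotypes, and their part in these results was not tested. The list median was 0.43 in anterior pituitary, -0.45 in posterior pituitary, 0.19 in cortex and 0.50 in choroid plexus. In cerebellum ECs it was -0.95 against -0.076 over all genes. The 4 smooth muscle markers there summed to 114 and 49.9 TPM in WT and 39.9 and 25.6 TPM in stabilized ECs, with Cnn1 under 0.1 TPM in the latter, and their part was not tested.

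With both replicates of each group used, gained peaks outnumbered lost peaks around the 9 genes. Within 100 kb of the gene body, 8 of 9 genes had a gained peak in stabilized cerebellum ECs, where 46.1% of 21938 protein-coding genes did, and 0 had a lost peak, beside 6.57%. In anterior pituitary 4 had a gained peak (Jag1, Jag2, Notch1 and Hey1), beside 27.4%, and 3 a lost one (Jag1, Gja5 and Bmx), beside 20.5%. In posterior pituitary all 9 had a gained peak, beside 52.2%, and 0 a lost one, beside 4.67%. These are counts over genes with no test. The number of peaks per library also differed, from 31795 and 29162 (WT) to 43412 and 40751 (stabilized) in cerebellum ECs, 45518 and 60240 against 48942 and 52393 in anterior pituitary, and 26400 and 25684 against 36356 and 51661 in posterior pituitary, and its part was not tested.

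The gained peaks numbered 17 in cerebellum, 9 in anterior pituitary and 27 in posterior pituitary. Of the 27 in posterior pituitary 20 were also peaks in both WT replicates of another tissue, beside 73.2% of all 7950 gained peaks there, and 8 were peaks in WT cerebellum, beside 30.2%. Of the 9 in anterior pituitary 3 were peaks in WT cerebellum, beside 20.2% of 2828, and of the 17 in cerebellum 7 were peaks in WT of another tissue, beside 37.1% of 5284. A peak in an intron of Notch1, 33279 bases from the start in anterior and 33295 in posterior pituitary, was gained in both pituitary lobes (3.55 and 6.58 in anterior, 4.26 and 5.31 in posterior pituitary) and in no WT tissue. The Bmx peak lost in anterior pituitary lay in an intron of Bmx, 9510 bases from the start (chrX:164248547-164248807), at 5.02 and 4.39 in WT. A promoter peak, within 1 kb of an annotated start, was present in all 12 libraries for 8 of 9 genes, beside 48% of protein-coding genes. Fold enrichment was that of the strongest peak near any annotated start of the gene, and which start held it was not recorded. In cerebellum ECs both stabilized libraries lay above both WT libraries in fold enrichment at 7 of these 8 promoters, all but that of Hey1, as at 81.8% of protein-coding genes with a promoter peak in the 4 libraries. In anterior pituitary 2 of the 8 lay above (Dll4 and Jag2) and 1 below (Notch1), beside 55.8 and 1.98% of genes, and in posterior pituitary 5 lay above and 0 below, beside 77.3 and 1.83%. At the Gja4 promoter fold enrichment in cerebellum ECs was 6.83 and 5.64 (WT) against 10.0 and 10.4 (stabilized). At the strongest peak near an annotated start of Gja5 it was 9.79 and 9.60 against 15.5 and 14.6. The RNA of both genes was not called there.

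TCF/LEF words were found near the summits of 3 of the 17, 2 of the 9 and 4 of the 27 gained peaks, in the order cerebellum, anterior and posterior pituitary. Over the whole genome 12.9, 21.6 and 15.1% of gained peaks held such a word within 100 bases of the summit, against 8.24, 4.61 and 3.15% of all peaks of the first WT replicate. RBPJ words were near the summits of 5, 4 and 7 of these peaks, and of 21.5, 23.8 and 22.5% of gained peaks against 18.3, 19.4 and 16.2% of WT peaks.

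**Figure D5:**
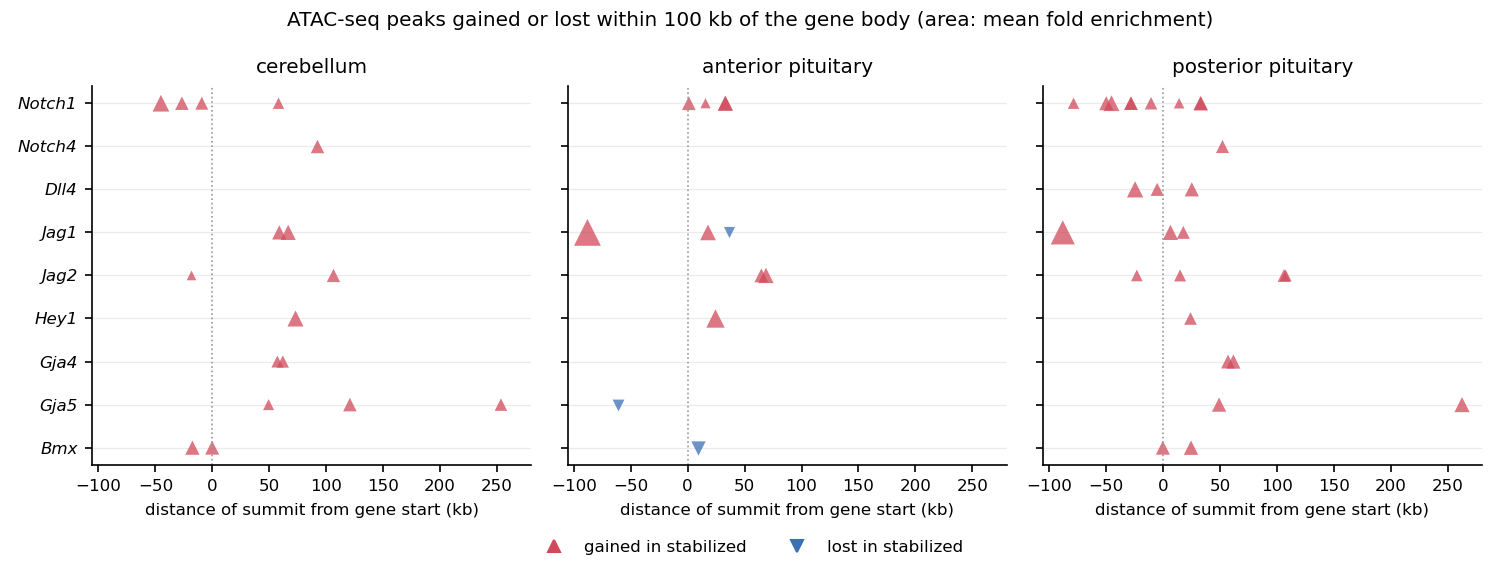
Peaks gained (upward triangles) and lost (downward triangles) in stabilized ECs are placed by distance of the summit from the start of each gene in kb, negative upstream, in 1 panel per tissue and out to 100 kb beyond either end of the gene (Gja5 as annotated spans 172724 bases), with the symbol area proportional to the mean fold enrichment of the 2 replicates. Lost peaks occur in anterior pituitary alone, 1 each at Jag1, Gja5 and Bmx, and the largest symbols belong to the region far upstream of Jag1.

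Across the 12 GFP-positive libraries, the gene whose log2(TPM + 1) was most like that of Bmx was Vwf, von Willebrand factor (Pearson r = 0.93, among 6314 genes with a mean of at least 10 TPM), followed by Aif1l and Vcam1. Jag1 was most like Jam2 (0.93), Dll4 most like Zfp652 (0.94), Hey1 most like Fam13c (0.91) and Gja4 most like Timm17a (0.92). Fbln2 was among the 3 nearest genes of both Gja4 (0.87) and Gja5 (0.87). Notch4 was most like Fmr1 (0.88), Jag2 most like Ogfr (0.92), Gja5 most like Gm14325 (0.88) and Notch1 most like Gm10163 (0.89). The values compared were summed TPM, which for Notch1 lay mostly on the short transcripts given above. Among the 9 genes themselves the highest values were between Jag1 and Gja5 (0.77), Gja4 and Gja5 (0.77), Gja5 and Bmx (0.74), Hey1 and Gja5 (0.74), and Notch4 and Dll4 (0.72), and the lowest was between Dll4 and Bmx (-0.58). The 12 libraries are 6 groups of 2, so these values describe tissues and genotypes and are not independent points.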

How the data were processed

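Per the labels and the study's methods, the authors made amplified cDNA libraries (single-end) and quantified transcripts with Salmon 0.10.2 on the mouse Ensembl transcriptome of GRCm38. The deposited values per transcript were expected counts and TPM, here summed per gene by GENCODE M21, the counts rounded. ATAC-seq peaks were called by the authors with MACS2 2.1.1.20160309 per library on mm10; the deposited peaks carry a fold enrichment, a ratio to the local background, and a -log10 q-value. Peaks with fold enrichment over 2 and -log10 q over 2 were used.

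The 9 genes and the lists of other genes were chosen with earlier results of these data known. Counts were tested in edgeR 4.0.16 (TMM, quasi-likelihood, 1 coefficient per group, Benjamini-Hochberg) separately for GFP-positive, GFP-negative, bound and input libraries, and for fractions together, in R 4.3.3. Errors of fold changes are standard errors derived from the F statistic. The script was tested on simulated data. Alternatives were DESeq2 1.42.0, other normalization, no filter, a replicate block, only the groups compared and leaving out each library, and, added after seeing the data, limma 3.58.1 on log2(TPM + 1). Of the other genes, those called and at 10 TPM or more in each replicate of the group that was higher were named, at most 5 per comparison. Cxcl12 in anterior pituitary and Notch3 fall outside this rule and were named after their values were seen. Transcripts that no gene entry matched took 0.0588 to 0.385% of reads and were left out.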

Additional observations from a re-analysis of the deposited data

Results flagged for a closer look

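The response of Gja5 to stabilized beta-catenin differed between posterior and anterior pituitary ECs (interaction term in edgeR, adjusted p = 0.0330) and between anterior pituitary and cerebellum ECs (adjusted p = 0.00577). Gja5 read 0 and 0 normalised CPM in WT anterior pituitary, 3.49 and 7.26 in stabilized anterior pituitary, 14.6 and 20.99 against 19.9 and 30.1 in posterior pituitary, and 19.1 and 20.7 against 5.81 and 13.8 in cerebellum. The difference between the lobes was not called without WT anterior pituitary replicate 1, without either stabilized posterior pituitary replicate, or when only the 4 groups concerned were fitted, and its adjusted p ranged from 2.84e-05 to 0.110 over the alternatives. The difference between anterior pituitary and cerebellum was also not called when only the 4 groups concerned were fitted.

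The response of Bmx differed between anterior pituitary and cerebellum ECs (adjusted p = 0.0454), with 0 and 0 against 5.77 and 5.52 in anterior pituitary and 66.7 and 37.95 against 18.1 and 43.8 in cerebellum. This call was kept in all 13 alternatives run for it. These did not include limma on TPM, which was fitted only to stabilized against WT ECs within a tissue.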

How the results depend on the processing

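With 2 libraries per group, several calls depend on 1 library, and for Gja5 and Bmx, with 0 reads in WT anterior pituitary ECs, the depth allows lower bounds only. The values below are numbers of the 9 genes called, and causes of the changes were not tested. With only the groups compared in the fit, which leaves fewer libraries for the estimate of spread, 0 were called in anterior pituitary ECs, 0 in posterior pituitary ECs, 2 between WT cerebellum and WT anterior pituitary, 0 between the WT lobes, 0 between WT cortex and WT choroid plexus, 0 for the difference between lobes, 1 for anterior pituitary minus cerebellum and 4 for WT posterior pituitary fractions. DESeq2, which called more of all genes too, called 2 in posterior pituitary ECs (beside 8.01% of all genes), 1 between WT cerebellum and WT posterior pituitary (11.8%), 6 between the WT lobes (6.98%), 4 for the difference between lobes (3%), and 1 each in GFP-negative cerebellum (5.9%) and posterior pituitary cells (4.83%). Without a filter on low counts these were 2, 2, 5, 4, 1 and 1, and 1 for posterior pituitary minus cerebellum. Leaving out 1 library each gave 1 to 2 in anterior pituitary ECs, 0 to 2 in posterior pituitary ECs, 1 to 4 in cortex, 3 to 5 for WT cerebellum against anterior pituitary, 0 to 1 for WT cerebellum against posterior pituitary, 2 to 5 between the WT lobes, 0 to 4 for the difference between lobes, 0 to 1 for posterior pituitary minus cerebellum, 0 to 1 for WT cortex against WT choroid plexus and 0 to 1 for choroid plexus minus cortex.

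Replicates with the same number did not deviate together (correlations of -0.022 to 0.037 in GFP-positive and -0.074 to 0.047 in bound libraries). Over all sorted RNA-seq libraries 3 of 66 pairs were above 0.1 (highest 0.139), and over all RiboTag libraries 3 of 28 (highest 0.219). The lobes of a replicate were dissected from the same mice and both fractions come from 1 preparation, but the sources used here do not say that the numbers mark this. With a replicate block 1 gene was called between WT cerebellum and WT posterior pituitary, Notch4 (-1.27), and Gja4 between the WT cortex fractions (2.21). With a block within each preparation Gja4 was called between the WT anterior pituitary fractions (3.90) and Gja5 lost its call between the WT fractions of cortex (3.09) and choroid plexus (3.39), and the block changed no other call.

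With limma on log2(TPM + 1), chosen after seeing the data, TPM summed per gene called 0 in anterior pituitary, 0 in posterior pituitary and 1 in cortex, and TPM of protein-coding transcripts 0, 0 and 0. With summed TPM the median of all genes was -0.32 in posterior pituitary and -0.65 in cortex, against 0.010 and 0 in the main fit. For protein-coding transcripts it was 0.20 in anterior pituitary and -0.10 in cerebellum, against 0.064 and -0.076. With summed TPM the sign turned for Notch1 in anterior pituitary (-2.07), Jag1 (-0.61), Gja4 (-1.07) and Gja5 (-0.32) in posterior pituitary, Dll4 (-0.33), Jag1 (-0.16), Jag2 (-0.55), Hey1 (-0.38), Gja4 (-0.80), Gja5 (0.099) and Bmx (-0.33) in cortex, and Hey1 (-0.20) and Gja5 (0.52) in choroid plexus. With protein-coding TPM it turned for Dll4 (0.10) and Jag2 (0.24) in cerebellum, Gja4 in posterior pituitary (-0.52), Hey1 (-0.94), Gja4 (-0.33) and Gja5 (1.07) in cortex and Gja5 in choroid plexus (0.99). Leaving out single libraries turned the sign of Notch1 (-0.33 to 0.10) and Dll4 (-0.36 to 0.13) in cerebellum, Dll4 (-0.38 to 0.29) and Gja4 (-0.51 to 2.19) in anterior pituitary, Jag1 (-0.045 to 0.64) and Gja4 (-0.014 to 0.45) in posterior pituitary, Hey1 (-0.016 to 0.70) and Gja4 (-0.016 to 0.67) in cortex, and Gja4 (-0.72 to 1.06) in choroid plexus. The value of Gja5 between the WT anterior pituitary fractions ranged from -6.10 to 0 and did not turn positive.

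For chromatin, a window of 10 kb left 3 genes with a gained peak in cerebellum and 2 in anterior pituitary. Stricter peaks gave 7 in anterior pituitary, and 1 with a lost peak in posterior pituitary. Leaving out 1 replicate gave 4 to 8 gained and 5 to 7 lost in anterior pituitary, and 0 to 2 lost in cerebellum and 0 to 1 in posterior pituitary. Of 1263 alternative values 1105 kept their direction and their side of the threshold. Values that missed the threshold throughout count among these. The calls between genotypes had 11 alternatives each. In anterior pituitary ECs Gja5 kept its call in 8 and Bmx in 6, and in posterior pituitary ECs Notch4 kept it in 6. In the cortex bound fraction Notch1 kept its call in 6, Notch4 in 9 and Jag2 in 9.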
